A study of Arabidopsis thaliana with 24 samples.

Results

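The 100 probe sets described here had a root signal that fell during treatment with 2 DNA-damaging drugs and was still low a day later. They were chosen from the 22746 probe sets of the array that are not the maker's controls. For each probe set, the mean log2(signal + 16) of the root arrays was taken at each time. The score was the lower of the 0.5 h and 1 h means minus the highest of the 6, 12 and 24 h means, and the 100 highest scores were kept. The genes AUR1, AUR2, AUR3, BUB3.1, KINESIN-12B, 3xHMG-box1, 3xHMG-box2, TOPII, HTB1, HTB2 and HTB11, which act in cell division or package DNA, were left out by the rule. The root values at these 5 times chose the members, so they are given below as a description and with no test. The tests concern the shoots, which the choice did not use.

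The plants were Arabidopsis thaliana of the Col-0 accession, 16 days old, grown on Murashige and Skoog medium under a 16 h light period. All of them had received 1.5 µg/ml bleomycin, which breaks DNA strands, and 22 µg/ml mitomycin, which crosslinks them. Shoots and roots were sampled 0.5, 1, 3, 6, 12 and 24 h later, with 2 Affymetrix ATH1 arrays for each of the 12 groups and 24 in all. The drugs were mixed into the medium with the rafts lifted out, 3 h after lights on, which put the samples at 3.5, 4, 6, 9, 15 and 3 h of the day's light cycle. No untreated plants enter the comparisons, and the reference throughout was the mean of 0.5 h and 1 h, called early. Treatment, handling of the rafts and hour of day cannot be told apart in a change from early. The mean of 6, 12 and 24 h is called late. These are whole organs, so fewer cells of a type and less RNA per cell cannot be told apart.

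In plants, breaks and crosslinks in DNA are sensed by the kinases ATM and ATR and passed on to the transcription factor SOG1, which turns on repair genes and slows the cell cycle. Genes of root function that lie outside that pathway, such as transporters and enzymes of secondary metabolism, are known for expression in particular root cell layers. Of the 100 members, 47 carried 1 gene in the annotation, 7 carried several genes, and 46 were not listed there and are called by their probe set. By general knowledge of their protein families, the 47 genes held 10 proteins with Cys/His-rich C1 domains, 9 enzymes, 5 membrane transporters, 4 small proteins of the secreted or wall type and 3 proteins with a heavy-metal-associated domain. A further 3 had other roles, and 13 are given no role here. These groups were formed after the values had been seen. Loci without a symbol take their family from general knowledge, not from the tables.

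The median signal lay between 35.98 and 39.95 on the shoot arrays and between 45.28 and 47.77 on the root arrays. Arrays of 1 group correlated at 0.984 to 0.993. The summed signal of 3 photosynthesis genes (LHCB4.1, LHCB4.2 and RCA) was 235 to 481 on the root arrays and 9416 to 19724 on the shoot arrays. That of 3 root genes (PYK10, EXPA7 and EXPA18) was 3014 to 3797 in roots and 399 to 812 in shoots. PYK10 held most of this sum, at 2937 to 3681 in roots and 362 to 798 in shoots. EXPA7 was at 23.4 to 58.5 in roots and 1.31 to 14.9 in shoots, and EXPA18 at 29.9 to 65.6 and 7.75 to 21.3. The tissue labels thus matched these markers. The shoot arrays of 12 h replicate 1 and 24 h replicate 2 stood nearest to the roots, with mean correlations of 0.714 and 0.711 with the root arrays, against 0.678 to 0.692 for the other shoot arrays.

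In roots the members' late level was below early by 0.75 to 2.33 on the log2(signal + 16) scale, with a median of 1.13, or 2.19-fold. The median over all probe sets was 0.02. The members' median change from early was -0.83 at 3 h, -1.04 at 6 h, -1.22 at 12 h and -1.21 at 24 h. The depth was thus mostly reached by 3 h and was greatest at the 2 last times. Of the 3 late times, the lowest mean was at 6 h in 10 members, at 12 h in 46 and at 24 h in 44. In 73 members the 24 h mean was below the 6 h mean. Some of the fall lay before 1 h: 262171_at was at 837 and 1032 at 0.5 h and at 299 and 300 at 1 h. The 0.5 h mean was above the 1 h mean in 66 members, for which the share over all probe sets was not counted. All 4 early root arrays lay above all 6 late ones in 97 members. The same held for 5.47% of all probe sets, and nothing is read from that pair of values because the choice used them. At an adjusted p below 0.05, 8.16% of all probe sets were lower late than early in roots and 8.89% higher, which is likewise given only as the setting from which the members were taken.

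Among the single-gene members, 2 enzymes had the highest scores. AT5G19110, of the aspartyl protease family, had root signals of 94.7 and 206 at 0.5 h, 108 and 121 at 1 h, 20.9 and 27.6 at 3 h, 20.9 and 17.3 at 6 h, 18.1 and 14.5 at 12 h, and 7.08 and 17.9 at 24 h. The 4 early arrays were high and the 8 later ones low, with no overlap. Its late mean was 4.51-fold below early. AT3G61400, a 2-oxoglutarate-dependent oxygenase by family, went from 91.9 to 141 on the early arrays to 18.3 to 25 on the 8 later ones, and its late mean was 3.43-fold below early. AT1G06620, of the same oxygenase family, went from 124 to 200 on the early arrays to 51.4 to 80.2 on the later ones. At 3 h it stood below its own late mean, with 116% of its drop already reached. The phosphodiesterase-like AT4G29690 had reached 67.2% of its drop at 3 h and was 2.93-fold below early at the late times.

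MSRB9, which repairs oxidised methionine in proteins, had root signals of 1141 and 1441 at 0.5 h, 1297 and 1257 at 1 h, 795 and 662 at 3 h, 648 and 776 at 6 h, 615 and 443 at 12 h, and 602 and 550 at 24 h. Every later array was below every early one. The late mean was 2.11-fold below early. GAT1_2.1, a class I glutamine amidotransferase by name, had root signals of 120 to 236 on the early arrays, 52.4 and 86.8 at 3 h, 36.8 and 58.9 at 6 h, 40.8 and 20.9 at 12 h, and 56.5 and 91.3 at 24 h. It was lowest at 12 h, and its mean was 0.49 higher at 24 h than at 6 h, the largest such difference among the single-gene members. CSLA03, a cellulose synthase-like protein of the family that makes mannan backbones, was at 106 to 127 early, 58.1 and 78.2 at 3 h and 51.5 to 66.5 late. The terpene synthase-like AT5G48110 took longer: it was at 154 to 221 early, 143 and 128 at 3 h, 87.1 and 101 at 6 h, 66.3 and 86.7 at 12 h and 55.6 and 72.3 at 24 h. Only 36.2% of its drop had been reached at 3 h. AT5G59490, a phosphatase-like hydrolase of the haloacid dehalogenase type, was at 116 to 288 early and 36.8 to 74.6 on the later arrays, with no overlap.

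Among the 5 transporters the late change in roots ranged from -1.58 to -1.12, with a median of -1.38. GTR1 (AT3G47960), which moves glucosinolates, the sulphur-rich defence compounds of this plant family, into cells, had root signals of 308 and 398 at 0.5 h, 205 and 227 at 1 h, 81.6 and 82.4 at 3 h, 75.1 and 73 at 6 h, 77 and 83.8 at 12 h, and 92.4 and 88.6 at 24 h. It was already lower at 1 h than at 0.5 h, and from 3 h on the arrays stayed within a narrow band. SWEET16, a sugar carrier of the vacuole membrane, was at 157 to 274 early, 82.6 and 73.5 at 3 h and 57.4 to 72 late. AT1G66760, of the MATE efflux family, was at 157 to 214 early and at 46 to 59.4 on all 8 later arrays. A second MATE carrier, AT5G52050, was dim throughout: its early signals were 22.6 to 37.4, those at 3 h 14 and 6.47, and the late ones 3.08 to 8.59, so its fold is understated on this scale.

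AT5G14120, of the major facilitator superfamily, kept its level to 3 h. Its root signals were 362 and 421 at 0.5 h, 340 and 341 at 1 h, 338 and 319 at 3 h, 171 and 134 at 6 h, 126 and 124 at 12 h, and 144 and 162 at 24 h. Both 3 h arrays lay just below the early ones, and all late arrays were far below. It had reached 11.4% of its drop at 3 h, against 73.0% to 99.4% for the other 4 transporters.

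**Figure D1:**
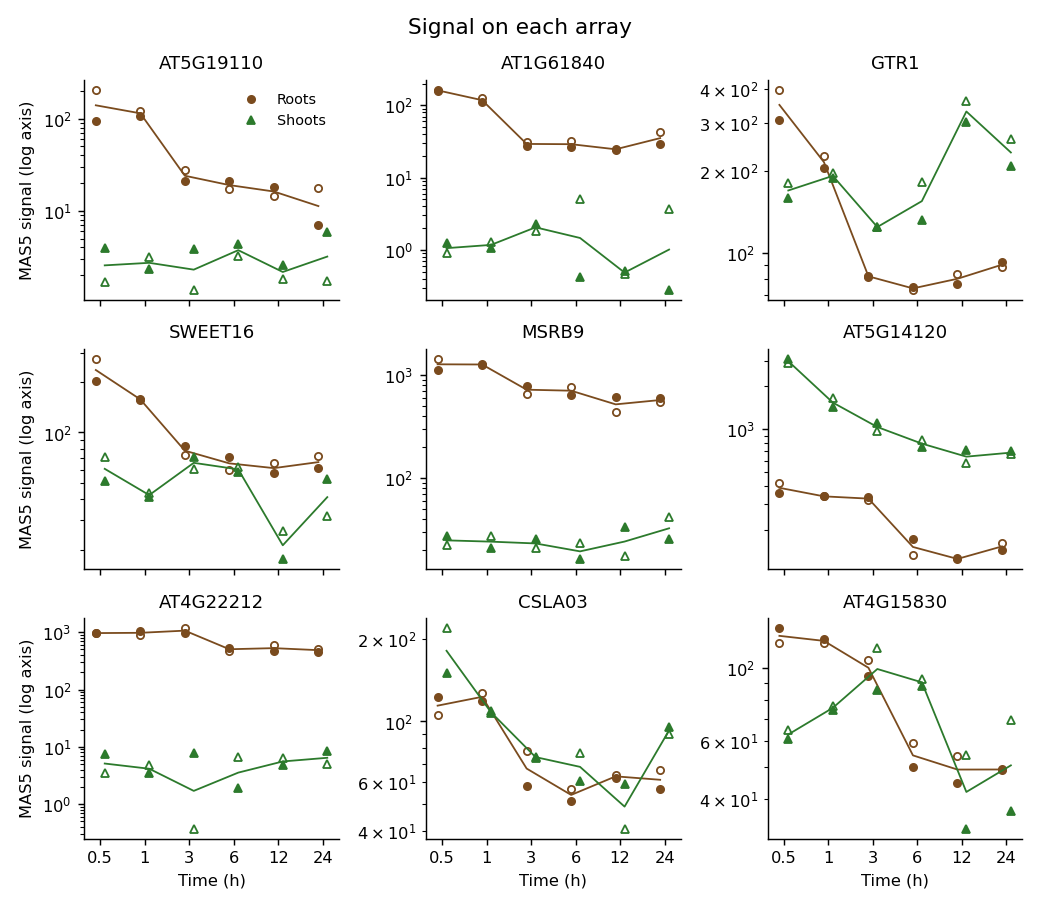
MAS5 signal (log axis, a different range in each panel) at 6 times for 9 single-gene members, with brown circles for root arrays, green triangles for shoot arrays, filled symbols for replicate 1, open symbols for replicate 2 and lines through the geometric means. In roots AT5G19110, AT1G61840, GTR1 and SWEET16 are low from 3 h, whereas AT5G14120, AT4G22212 and AT4G15830 are low from 6 h. In shoots AT5G14120 and CSLA03 go down too, GTR1 is highest at 12 h, and AT5G19110, AT1G61840 and AT4G22212 stay below 16.

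The 4 proteins of the secreted or wall type differed in the share of the drop they had reached at 3 h, from -14.3% to 101%. AT4G22610, of the protease inhibitor and lipid-transfer family, was at 546 to 795 early, 282 and 202 at 3 h, 206 and 183 at 6 h, 90 and 131 at 12 h and 323 and 153 at 24 h. The 24 h arrays disagreed, 1 of them being above both 3 h arrays. The glycine-rich AT4G18280 was at 153 to 164 early and 41.7 to 73.7 afterwards. The defensin-like AT4G22212 had root signals of 982 and 951 at 0.5 h, 1050 and 909 at 1 h, 977 and 1164 at 3 h, 540 and 472 at 6 h, 464 and 600 at 12 h, and 456 and 519 at 24 h. It was the 1 member whose 3 h mean was not below early, and it then stood at a lower level on all 6 late arrays. AT5G28630, also glycine-rich, was at 135 to 278 early and 170 and 189 at 3 h. Later it read 97.2 and 82.8 at 6 h, 140 and 31 at 12 h and 36.8 and 61 at 24 h, and 1 of its 12 h arrays overlapped the early ones.

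The largest group was of the C1-domain proteins, a zinc-binding family that is large in plants and mostly of unknown function. Its 10 single-gene members were AT1G44050, AT1G55390, AT1G55430, AT1G61840, AT2G02630, AT2G02680, AT3G11370, AT3G11390, AT5G02350 and AT5G55770. AT1G61840 had root signals of 159 and 165 at 0.5 h, 112 and 125 at 1 h, 27.6 and 31.1 at 3 h, 26.3 and 32.1 at 6 h, 25 and 24.4 at 12 h, and 29 and 42.9 at 24 h. AT1G55430 showed the same step at a different signal, with 83.9 to 92.3 early and 25.8 to 41.4 on the 8 later arrays. Across the 10, the late change was -1.76 to -0.75, with a median of -1.16. Between 84.9% and 108% of the drop had been reached at 3 h. Of the late times, 12 h was the lowest in 9 of the 10. AT1G44050, at 216 to 246 early and 58.6 to 82 at 3 to 12 h, was higher again at 24 h with 87.2 and 112, though still far below early. The 10 probe sets are related in sequence, and probes that bind more than 1 family member would make their values depend on each other. This was not tested.

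The 3 members with a heavy-metal-associated domain, a fold that binds copper and similar ions, were AT5G52670, AT5G52680 and AT5G52710. Their late change was -1.65, -1.11 and -1.82. AT5G52710 had root signals of 246 and 150 at 0.5 h, 304 and 519 at 1 h, 81.8 and 125 at 3 h, 81.1 and 132 at 6 h, 59.6 and 42.4 at 12 h, and 53.1 and 59.1 at 24 h. It came down in 2 steps and was 0.73 lower at 24 h than at 6 h. This was the largest further drop among the single-gene members by a narrow margin, since AT3G02640 was also 0.73 lower. The 3 of them were lowest at 12 h.

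These 3 loci are also near neighbours. In the TAIR10.1 gene order, 11 of the 47 single-gene members fell into 5 runs in which each was within 10 protein-coding genes of the next. The other runs were AT1G55390 with AT1G55430, AT2G02630 with AT2G02680, AT3G11370 with AT3G11390, and MSRB9 with AT4G21870. The first 3 of these hold C1-domain genes. How often single-gene probe sets in general have such a neighbour was not counted, so the runs are a description. Of the genes between them that had a probe set of their own, AT2G02640, AT2G02650 and AT2G02660 changed by -0.04, -0.04 and 0.01. AT3G11380 changed by 0.01, AT4G21865 by -0.21 and AT5G52690 by -0.37. Nothing is read from these smaller changes, because the members were chosen for a large fall. AT2G02640, AT2G02650, AT2G02660 and AT3G11380 were also under 16 on all root arrays, which left little room to fall. The highest root signal of AT5G52690 was 27.1.

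**Figure D2:**
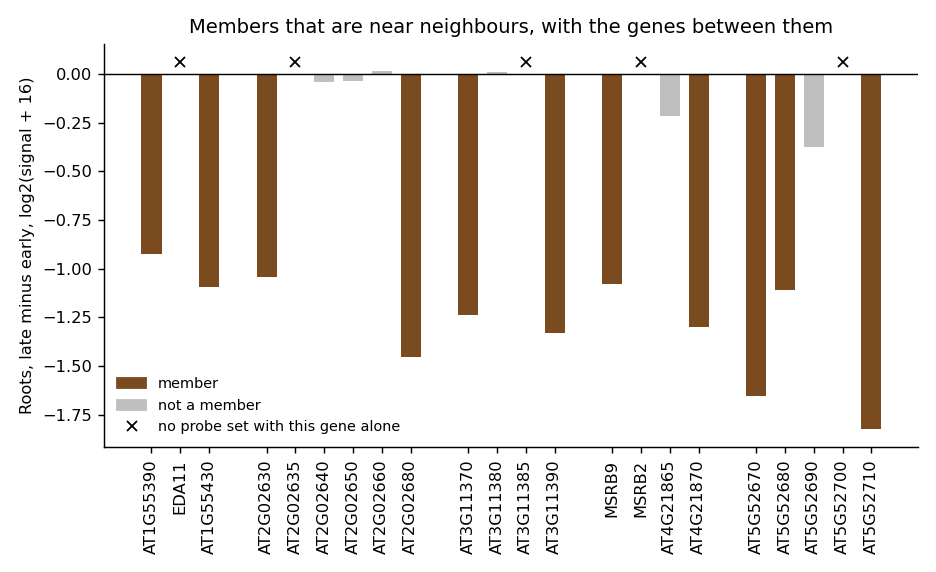
Late minus early difference in roots, in log2(signal + 16), for the 5 runs of neighbouring members in gene order, with members as brown bars, the genes between them as grey bars and crosses for genes without a probe set of their own in the annotation. The 11 members lie between -0.92 and -1.82, and the 6 genes between them that have a bar between -0.37 and 0.01. Of the latter, AT2G02640, AT2G02650, AT2G02660 and AT3G11380 were under 16 on all root arrays.

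Of the 3 members with other roles, AT4G21870, a chaperone of the small heat-shock type, was at 62 to 83.9 early, 40.4 and 58.7 at 3 h and 16.2 to 29.5 late. ZW9, a TRAF-like protein, had 1 of the smallest drops, from 571 to 785 early to 332 to 450 late, 1.70-fold between the means. AT2G37470 is a histone H2B gene outside the rule's left-out list, named here after its values were seen. Its root signals were 125 and 140 at 0.5 h, 94.3 and 104 at 1 h, 61.2 and 58.6 at 3 h, 52 and 49.5 at 6 h, 54.2 and 53.2 at 12 h, and 45.2 and 57.8 at 24 h. It was low from 3 h.

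Members without a role here included AT1G15640, at 291 to 504 early and 61.5 to 113 on the later arrays, and AT1G19380, at 256 to 325 early and 124 to 174 later. AT4G15830 was at 119 to 132 early, 94.7 and 106 at 3 h and 44.6 to 59 late. AT3G02120 was at 62.5 to 82.6 early, 63.3 and 49.3 at 3 h and 17.8 to 27.6 late. AT3G02640 was at 166 to 268 early, 150 and 161 at 3 h, 103 and 93.4 at 6 h, 68.6 and 67.4 at 12 h and 50.3 and 55.6 at 24 h. It was lower at each later time and stood 0.73 lower at 24 h than at 6 h. The largest score of all belonged to the unlisted probe set 263539_at, with 116 and 88.7 at 0.5 h, 94.7 and 133 at 1 h, 22.5 and 7.29 at 3 h and 3.62 to 11.9 late. Its late mean was 5.04-fold below early.

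The share of the late drop that had been reached at 3 h separated the members by their course. The 3 h root arrays were not part of the choice, but the early reference was, so these shares are a description. The share ran from -14.3% to 118%, with quartiles at 44.9%, 73.1% and 91.9%. In 93 members both 3 h arrays were below all 4 early arrays, as in 14.3% of all probe sets. With a limit at 50%, 72 members are called early fallers below and 28 late fallers. The limit is a convention, and 15 members lay between 40% and 60%. The early fallers' median change was -1.02 at 3 h, -1.12 at 6 h, -1.28 at 12 h and -1.24 at 24 h. The late fallers' median went on down, from -0.35 at 3 h to -0.88 at 6 h, -1.15 at 12 h and -1.17 at 24 h. The 24 h mean was below the 6 h mean in 25 of the 28 late fallers and in 48 of the 72 early fallers.

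**Figure D3:**
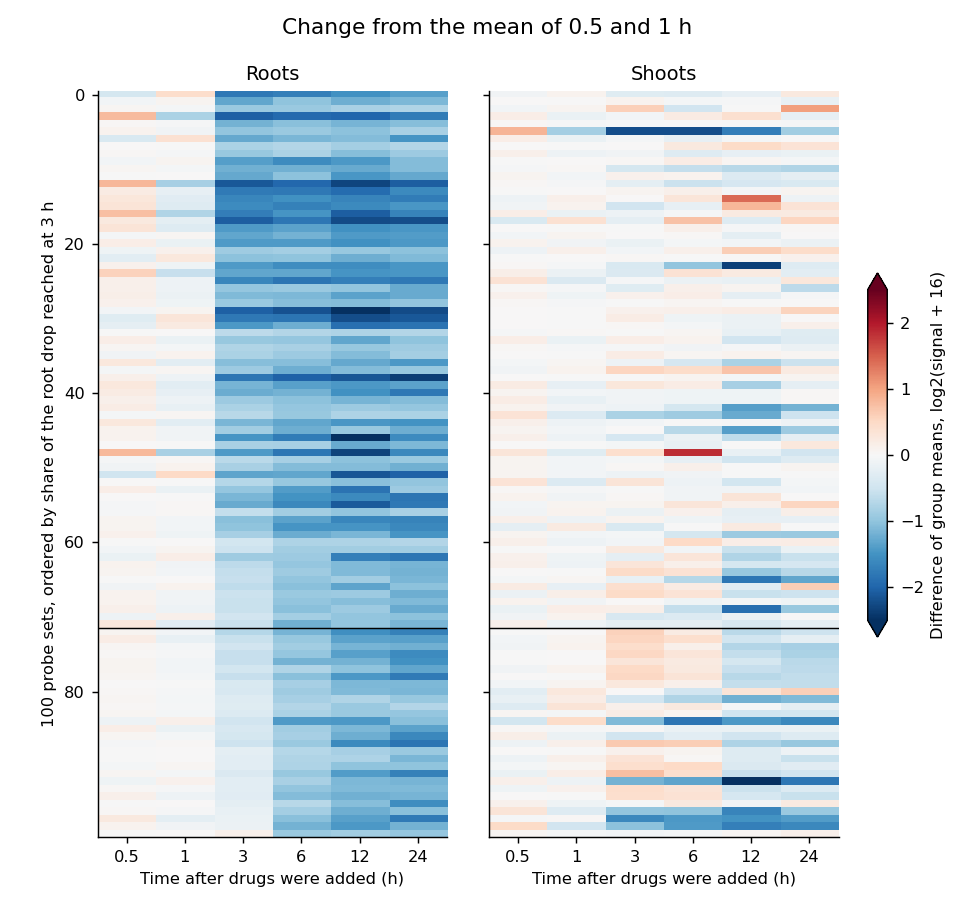
Change from early in log2(signal + 16), blue for lower and red for higher, of the 100 members (rows) at 6 times in roots (left) and shoots (right), ordered by the share of the root drop reached at 3 h. The line separates the 72 early fallers above from the 28 late fallers below. The roots are blue from 3 h or 6 h on by choice, whereas many rows in shoots are pale, and among the 28 late fallers the shoot mean is above early in 19 at 3 h and below it in 26 at 12 h.

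At the rank limit, the last members were 266215_at, 259290_at and 251524_at, with scores of 0.697, 0.694 and 0.693, and the last with a single gene were CSLA03, AT5G59490 and AT5G48110. Just outside stood 255129_at, 249979_s_at and 257005_at with scores of 0.689, 0.688 and 0.687, and the first single-gene probe sets outside were AT3G10040 (0.686) and AT2G16980 (0.685). Of the genes left out by the rule, TOPII (1.01), 3xHMG-box2 (0.87), HTB2 (0.77) and BUB3.1 (0.69) had scores at least as high as the lowest member's. The other 7 scored 0.17 to 0.61.

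Most members did not pass as lower in shoots. Of the 100, 29 had a signal under 16 on all 12 shoot arrays, as did 25.2% of all probe sets, which left little room to measure a fall. Of these 29, AT1G55390 passed as lower, at 6 h and for the late mean. Early fallers made up 26 of the 29. The members' median late change in shoots was -0.12, beside -0.03 over all probe sets. By limma with Benjamini-Hochberg adjustment over all probe sets, 26 members were lower late than early in shoots, beside 15.4% of all probe sets, and 5 were higher, beside 12.3%. Without the shoot array of 1 h replicate 2, the count of lower members was 17. The count of higher ones was 2 without 0.5 h replicate 1 and 8 without 0.5 h replicate 2. In 14 members all 6 late shoot arrays were below all 4 early ones, as in 4.78% of all probe sets. All 6 late arrays above all early ones were found in 0 members and in 3.90% of all probe sets.

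The calls in shoots depended on the time. At 3 h, 10 members were lower (6.21% of all probe sets) and 4 higher (5.14%). Without 3 h replicate 1 these counts were 6 and 1, and without 3 h replicate 2 they were 6 and 0, where 6 were higher at an unadjusted p below 0.05. The higher count was 2 without 0.5 h replicate 1 or 1 h replicate 2. With each array centred on its median, 8 were lower and 8 higher. At 6 h, 14 were lower (11.5%) and 4 higher (9.95%). Without 6 h replicate 1, 8 were lower, and the higher count was 1 without 1 h replicate 2 or 6 h replicate 2. At 12 h, 35 were lower (14.7%) and 6 higher (13.6%), and without 12 h replicate 1 the lower count was 22. At 24 h, which is nearly matched to early for the hour of day, 29 were lower (11.0%) and 3 higher (8.98%). Without 24 h replicate 1 the lower count was 11, and without 0.5 h replicate 2 the higher count was 5.

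Leaving out both shoot arrays that stood nearest to the roots gave 32 lower members late, 27 at 12 h and 30 at 24 h. The summed signal of the 3 photosynthesis markers was 17075 to 19724 on the early shoot arrays and 9416 to 18019.5 on the late ones, and its part in these counts was not tested. The 3 root markers summed to 399 to 619 early and 464 to 812 late in shoots. Over the 4 times 52 members passed at least once in either direction, beside 42.9% of all probe sets, and 48 at none. At both 12 h and 24 h 24 members were lower, beside 5.50% of all probe sets, and 8 were lower at all 4 times, beside 1.92%.

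**Figure D4:**
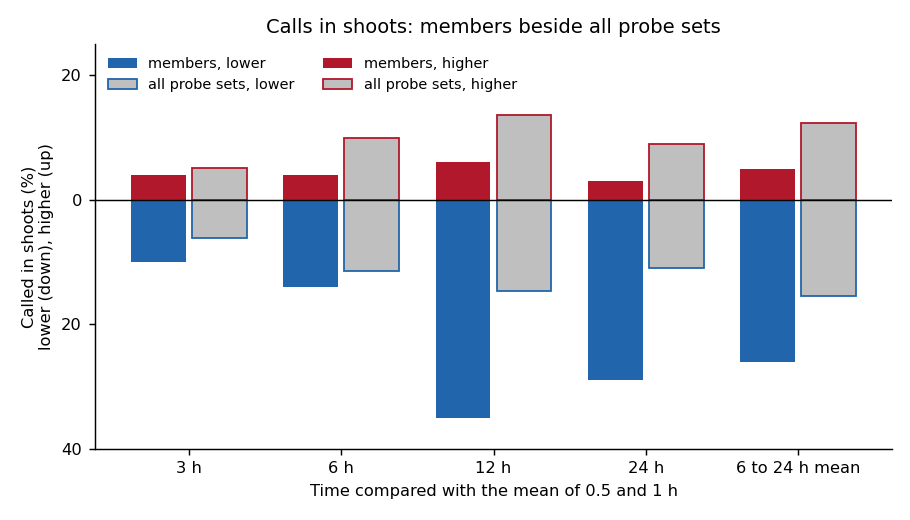
Percent of the 100 members (coloured bars) and of all 22746 probe sets (grey bars) with an adjusted p below 0.05 in shoots, lower drawn downward and higher upward, at 3, 6, 12 and 24 h and for their late mean, each against early. The members' lower bars are longest at 12 h (35 members) and 24 h (29), against 14.7% and 11.0% of all probe sets, and their higher bars are shorter than those of all probe sets at each comparison.

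Among the transporters, AT5G14120 fell in shoots at every time. Its shoot signals were 3068 and 2866 at 0.5 h, 1414 and 1654 at 1 h, 1105 and 967 at 3 h, 754 and 833 at 6 h, 717 and 577 at 12 h, and 699 and 673 at 24 h. All 8 later arrays lay below all 4 early ones, and the early level itself differed between 0.5 h and 1 h. The late change was -1.57 ± 0.08 (SE; limma adjusted p = 1.54e-10), and -1.10 ± 0.10 against 1 h alone. The decline at 3 h was -1.03 ± 0.11 in shoots, where roots were still near their early level.

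AT1G66760 was at 109 to 135 on the early shoot arrays, 77.6 and 96.5 at 3 h, 44 and 59.4 at 6 h, 3.8 and 19.3 at 12 h, and 112 and 74.8 at 24 h. It passed as lower at 6 h and at 12 h, where the change was -2.34 ± 0.19 (limma adjusted p = 3.69e-08). At 24 h it was -0.31 ± 0.19 (limma adjusted p = 0.279), with 1 array back within the early range. SWEET16 was lower at 12 h, with 17.5 and 25.8 against 41.3 to 71.6 early, a change of -0.84 ± 0.15 (limma adjusted p = 0.000389). At 24 h its change was -0.22 ± 0.15 (limma adjusted p = 0.367).

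GTR1 differed from the rest, being the 1 single-gene member that passed as higher in shoots for the mean of the late times. Its shoot signals were 159 and 181 at 0.5 h, 188 and 196 at 1 h, 125 and 124 at 3 h, 132 and 182 at 6 h, 302 and 363 at 12 h, and 209 and 262 at 24 h. The 3 h arrays were below all early ones and the 12 h and 24 h arrays above them. The change was -0.48 ± 0.12 at 3 h (limma adjusted p = 0.0144), 0.82 ± 0.12 at 12 h (limma adjusted p = 5.03e-05) and 0.32 ± 0.09 late (limma adjusted p = 0.0121). The late rise was 0.28 without 0.5 h replicate 1, and 0.25 to 0.39 over the fits with 1 array left out. Against 1 h alone it was 0.24 ± 0.11 (limma adjusted p = 0.163), and against 0.5 h alone 0.41 ± 0.11 (limma adjusted p = 0.0138). The late call thus depended on the baseline.

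Of the 9 enzymes, CSLA03 passed in shoots. It was at 107 to 218 on the early shoot arrays and 40.7 to 95.6 on the 8 later ones, without overlap, and the late change was -0.89 ± 0.10 (limma adjusted p = 4.14e-06), or -0.56 ± 0.13 against 1 h alone (limma adjusted p = 0.00515). In 5 of the other 8 enzymes all shoot signals were under 16, and MSRB9, at 16.1 to 41.4 over the 12 shoot arrays, gave a late change of 0.03 ± 0.13 (limma adjusted p = 0.914). Of the secreted or wall type, AT5G28630 fell in shoots from 75.3 to 138 early to 22.5 to 35.3 on the later arrays, a late change of -1.45 ± 0.24 (limma adjusted p = 0.000205). In shoots it was low from 3 h. In roots it was low from 6 h, apart from 1 of the 12 h arrays, at 140. The chaperone AT4G21870 fell from 340 to 942 early to 145 to 303 late, a change of -1.62 ± 0.16 (limma adjusted p = 3.99e-07). Its early shoot signals were 340 and 568 at 0.5 h and 942 and 759 at 1 h. The late change was -2.08 ± 0.20 against 1 h alone and -1.16 ± 0.20 against 0.5 h alone. The histone gene AT2G37470 was at 124 to 159 early, 139 and 131 at 3 h and 39.4 and 57 at 12 h, and its late change was -0.997 ± 0.101 (limma adjusted p = 7.89e-07).

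AT1G19380 was lower than early at each of the 4 times in shoots, with 364 and 358 at 0.5 h, 104 and 94.7 at 1 h, 24.9 to 33.4 at 3 h and 6 h, 68.5 and 30.8 at 12 h, and 84.8 and 112 at 24 h. The 24 h arrays overlapped those of 1 h. The late change was -1.61 ± 0.13 (limma adjusted p = 7.63e-08), and it rested largely on the 0.5 h arrays: against 1 h alone it was -0.75 ± 0.17 (limma adjusted p = 0.00362). The largest change in shoots was that of the unlisted 248622_at, noticed after its values were seen. Its shoot signals were 1761 to 2295 early, 842 and 902 at 3 h, 828 and 765 at 6 h, 93.8 and 76.3 at 12 h, and 762 and 411 at 24 h. The 12 h change was -4.32 ± 0.21 (limma adjusted p = 4.98e-11).

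The C1-domain genes gave no shoot course to compare, since all 10 stayed under 16 on every shoot array, with 15.7 as the highest signal. The 1 that passed late was AT1G55390 at -0.23 ± 0.07 (limma adjusted p = 0.0277), on signals within that range, and against 1 h alone its change was -0.10 ± 0.09 (limma adjusted p = 0.529). The 3 heavy-metal-associated members were likewise under 16 on all shoot arrays.

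Early and late fallers of the root differed in how many passed in shoots, a difference that was not tested. At 12 h, 17 of the 28 late fallers and 18 of the 72 early fallers were lower in shoots. At 24 h these counts were 15 and 14, and for the late mean 12 and 14. Over all probe sets, 14.7% were lower at 12 h, 11.0% at 24 h and 15.4% late. Members under 16 on all shoot arrays made up 26 of the early fallers and 3 of the late ones. None of these dim members passed at 12 h or 24 h. The 17 and 18 calls at 12 h, and the 15 and 14 at 24 h, thus all came from members that were not dim. What part dimness had in the difference between the 2 groups was not tested. The late fallers' median change in shoots was 0.23 at 3 h, 0.13 at 6 h, -0.56 at 12 h and -0.56 at 24 h. The early fallers' medians were -0.02, -0.04, -0.14 and -0.05. At 3 h, 19 of the 28 late fallers had a shoot mean above early, and at 12 h 26 had one below. Over the 100 members, the share of the root drop reached at 3 h and the late change in shoots correlated at r = 0.34 and rho = 0.39. This is a description across probe sets that share the same arrays.

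A higher level in shoots at 3 h followed by a lower one at 12 h passed the test in 3 members, beside 0.536% of all probe sets, and all 3 were late fallers: 264802_at, 246920_at and 255265_at, which were not listed in the annotation. The first had shoot signals of 132 to 151 early, 216 and 193 at 3 h, 169 and 185 at 6 h, 63.4 and 98.1 at 12 h, and 68.9 and 103 at 24 h. The 3 h arrays were above all early ones and the 12 h and 24 h arrays below them. The changes were 0.51 ± 0.13 at 3 h (limma adjusted p = 0.018) and -0.70 ± 0.13 at 12 h (limma adjusted p = 0.000579). AT4G15830 and AT3G02640 had the same order of means, with 0.44 ± 0.17 (limma adjusted p = 0.102) and 0.76 ± 0.26 (limma adjusted p = 0.0695) at 3 h. Of these, AT4G15830 was lower at 12 h by -0.54 ± 0.17 (limma adjusted p = 0.0197). The calls of a higher level at 3 h were fragile and depended on single 3 h arrays, as given above. With shoots fitted alone no member passed as higher at 3 h, so none of the 3 kept the pattern there.

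**Figure D5:**
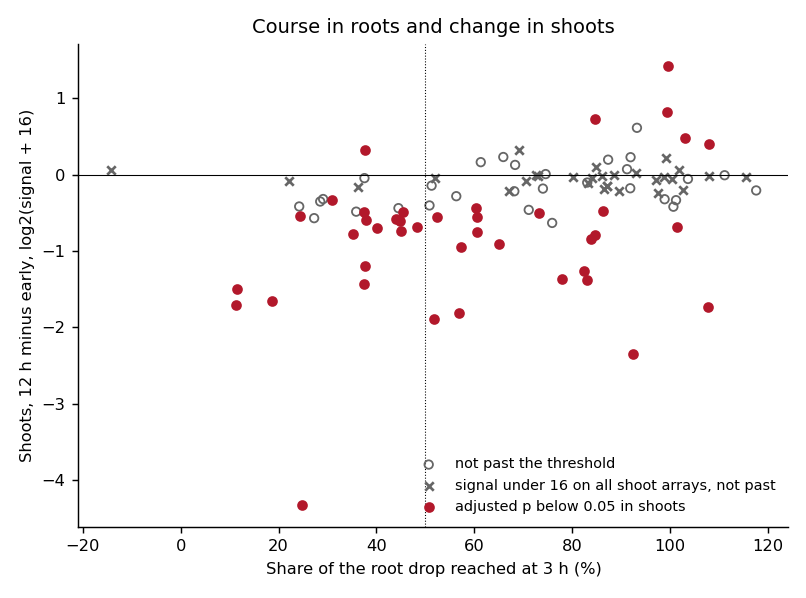
Change in shoots at 12 h against early, in log2(signal + 16), plotted against the share of the root drop reached at 3 h (percent) for the 100 members. Red points have an adjusted p below 0.05 (35 lower, 6 higher), open circles do not, crosses mark members under 16 on all shoot arrays, and the dotted line is the 50% limit between late and early fallers. Crosses lie mostly to the right of the limit, and 17 of the 28 points to its left are red and below 0.

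At 3 h shoots were also set beside roots. The members had been chosen through a high early root signal, which favours a lower level in shoots, so this difference is a description from which nothing is read about the members. At an adjusted p below 0.05 shoots were lower in 50 members, beside 37.3% of all probe sets, and higher in 14, beside 20.3%. All 29 members under 16 on every shoot array were among the 50. With each array centred on its median the counts were 46 lower and 25 higher. That centring moved the median difference of all probe sets from -0.13 to 0.09. Early fallers were lower in shoots in 44 of 72 cases and late fallers in 6 of 28. The differences of the 10 C1-domain members, all of them dim in shoots, were -0.47 to -2.43 on the log2 scale. AT4G22212 had the largest difference named here, with 7.8 and 0.371 in shoots against 977 and 1164 in roots, or -5.78 ± 0.17. MSRB9 followed, with 25.4 and 20.9 in shoots against 795 and 662 in roots, or -4.25 ± 0.20. AT4G21870 was higher in shoots by 2.17 ± 0.24, and AT5G14120 by 1.61 ± 0.12.

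Of the 168 genes in 9 lists of pathways, 33 had a single-gene probe set, and none of these 33 was a member. The other listed genes could not be checked for membership. The lists were chosen with earlier results of these data known, so the calls below are a description. Late against early, 8.16% of all probe sets were lower in roots and 8.89% higher. In shoots 15.4% were lower and 12.3% higher. Of the low-oxygen list, 12 of 28 genes were measured. In roots 3 were lower late than early: CML38, a calmodulin-like protein (-1.54), AT3G10040, known as a repressor of that response (-1.23), and AT4G10270 (-1.002). In shoots AT4G27450 was lower (-1.83) and PDC2, a pyruvate decarboxylase, higher (1.54). Of the touch, wound and rapid stress list 6 of 36 were measured. The calmodulin-like AT1G76640 (-1.53), the glutaredoxin GRX480 (-1.03) and WRKY22 (-0.38) were lower in roots, and in shoots WRKY22 was lower (-0.83) and the zinc-finger factor STZ higher (1.30). Of the auxin list 6 of 18 were measured, with LBD29 lower (-0.43) and IAA29 higher (0.70) in roots and 3 genes lower in shoots. The median late change in roots was -0.30, -0.32 and 0.04 for these 3 lists, beside 0.02 over all probe sets.

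Of the root hair and cell wall list 6 of 14 were measured. The wall-loosening XTH18 was lower in roots (-0.71), and XTH18 and XTH19 were lower in shoots (-0.91 and -1.12). Of the DNA replication list 2 of 17 were measured, the replication helicase subunit PRL and the polymerase subunit ICU2, whose root changes of -0.13 and 0.05 did not pass and whose shoot changes of -0.42 and -0.33 did. Of the circadian clock list GI was measured, with 0.15 in roots, which did not pass, and 0.64 in shoots, which did. None of the genes on the lists of mitosis, ethylene and nitrate had a single-gene probe set here. Nor had those on the marker lists of the root meristem, endodermis and xylem. The genes left out by the rule, some of which act in cell division, were not on these lists. Each of them did have a single-gene probe set, and their scores are given above.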

How the data were processed

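RNA of shoots and roots was measured on 24 arrays. The deposited values were linear signal intensities, for which the submitters' processing notes name MAS5. The MAS5 version and settings are not given in the sources used here. As the values show, each array had been scaled to a mean of 100 with 2% of probe sets trimmed at each end. Without detection calls, a dim signal could not be told from background. The number of arrays limits the precision. Whether both arrays of a group came from separate plants or cultures is not in the labels, so each p-value reflects just the spread of these arrays, and that spread may be technical.

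The 64 control probe sets were left out, and signals were turned to log2(signal + 16), which understates changes of dim probe sets. Limma 3.58.1 in R 4.3.3 was fitted to all 24 arrays, giving each of the 12 groups its own mean, and variances moderated along an intensity trend (residual degrees of freedom 12, prior 4.91). P-values were adjusted by Benjamini-Hochberg over 22746 probe sets, at a threshold of 0.05, and errors are SE. The fit was tested on simulated data. Other steps ran in Python 3.11.15 with pandas 2.3.3, numpy 2.4.6, matplotlib 3.10.9 and scipy 1.17.1.

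Names came from the array's annotation table (13513 with 1 gene, 503 with several, 8730 not listed), and none was named from a probe set with several genes. All 47 single loci of the members were in TAIR10.1, and 6 had a symbol other than the locus. The members and the gene lists were chosen with earlier results of these data known. Genes were named by a rule: among single-gene members, the 20 highest scores, those with a symbol, the 3 nearest the rank limit on each side, the 5 largest falls and rises in shoots that passed, the 3 largest and smallest shares at 3 h, the 3 largest changes each way from 6 h to 24 h, and passing list genes. This named 33 members. The rest, and the role groups, were named after their values were seen. Replicate numbers were checked for pairing over 66 pairs of groups. The correlation of deviations was -0.19 to 0.20 and above 0.1 in 6, so the numbers were not taken to pair samples.

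Each result was recomputed with pseudocounts of 1 and 64, after quantile normalization (all arrays, or within tissue) or median centring, without the dimmest 30% or 50% of probe sets, without the trend, with shoots fitted alone, a replicate block, 0.5 h or 1 h alone as baseline, and each array left out. A fit without the pair of shoot arrays closest to roots was added after seeing the data. Sequences and promoter motifs were not analysed here.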

Additional observations from a re-analysis of the deposited data

Results flagged for a closer look

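In 9 members, all shoot arrays of at least 1 late time stood above the 4 early shoot arrays and passed the test there, while the root arrays of that time stood below the 4 early root arrays. Shoot arrays apart and higher in this way were found in 18.9% of all probe sets, and together with lower root arrays in 2.48%, where the choice of members fixed the root part. The difference between the tissues was not tested, because the root values were used in the choice. At 6 h the shoot change was 0.46 for 263137_at, 1.85 for 262226_at and 0.51 for AT5G48310, beside root changes of -1.21, -1.81 and -0.77. At 12 h it was 1.42 for 265530_at, 0.82 for GTR1, 0.72 for 263137_at and 0.48 for 262671_at, beside -1.65, -1.60, -1.09 and -0.85 in roots. At 24 h it was 0.62 for AT3G15760, 0.60 for 252863_at and 1.02 for 251524_at, beside -1.03, -1.15 and -0.75 in roots. The largest, 262226_at at 6 h, carries several genes and is not named. Groups here held 2 arrays, and single arrays were not screened as outliers.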

How the results depend on the processing

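Of 373 recomputed values, 335 kept their direction and side of the threshold or, for counts, stayed within 1.5 times, 36 counts moved further, 2 values lost their call, and none reversed. The cause was not tested. The membership kept 67 of 100 probe sets with a pseudocount of 1 and 79 with 64, 96 to 98 under other scalings and 76 to 97 with 1 root array left out. The 5 largest falls in shoots among single-gene members stayed called in every setting run. The late count of higher members (5) was 3 without the dimmest 50% and 3 with the 1 h baseline, and that of lower ones (26) was 17 with that baseline. At 3 h, the higher count (4) was 8 with a pseudocount of 64, with median centring or without the dimmest 30%, 2 with the 1 h baseline and 0 with shoots fitted alone (limma; 12 at an unadjusted p below 0.05), and the lower count (10) was 6 with the 0.5 h baseline. At 6 h, the higher count (4) was 2 without the dimmest 50% or with the 1 h baseline, and 1 with shoots alone. At 24 h, the higher count (3) was 5 with a pseudocount of 1, 6 with centring or without the dimmest 30% and 5 without the dimmest 50%, and the lower count (29) was 16 with shoots alone and 19 with the 1 h baseline. Shoots against roots at 3 h gave 25 higher with centring and 18 lower without the dimmest 50%, which drops dim members. With 1 array left out, counts of lower and higher members were 17 to 35 and 2 to 8 late, 6 to 9 and 0 to 3 at 3 h, 8 to 13 and 1 to 5 at 6 h, 22 to 35 and 4 to 7 at 12 h, 11 to 30 and 2 to 5 at 24 h, and 46 to 48 and 12 to 13 for shoots against roots. A lone array was then assumed to vary like the other groups. The late change of GTR1 was 0.24 (limma adjusted p = 0.163) with the 1 h baseline and 0.25 to 0.39 with 1 array left out. With the replicate block the count of higher members at 24 h was 5, and no other count moved past 1.5 times. Signals near background limit the shoot values of the 29 dim members.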
